A study of Mus musculus with 15 samples.

Results

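AP-1 is the family of leucine zipper transcription factors made from Fos and Jun proteins. Several of its genes, Fos among them, belong to the immediate early class, which is transcribed from existing factors soon after a cell receives a signal. The genes described here are 10 of the 46603 genes in the count files: Fos, Fosb, Fosl1, Fosl2, Jun, Junb, Jund, Atf3, Egr1 and Jdp2. They were taken as a list of gene names matched to Ensembl identifiers; the rule itself uses no measured value, but earlier results of these data were known when the list was made. All 10 were among the 15997 genes that passed the filter on low counts.

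Fos proteins cannot pair with themselves and bind DNA as dimers with a Jun protein, whereas Jun proteins also pair with each other. The members differ in strength, so a change in which Fos and Jun genes are transcribed changes the make-up of the dimers a cell can form. In fibroblasts AP-1 is known for switching on proteases that cut the extracellular matrix and genes of the cell cycle, and the glucocorticoid receptor is known to hold down many of the same genes. Fos and its relatives are also early genes of adipocyte differentiation in culture, when the inducing cocktail raises cAMP.

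RNA was sequenced from wild-type mouse embryonic fibroblasts (MEFs) of BALB/c mice, prepared from embryos of 10.5 days. There were 5 conditions of 3 samples: MEFD0, taken before treatment; MEFD3min and MEFD5min, untreated cells at day 3 and day 5; and MEFD3plu and MEFD5plu, treated cells at the same days. Treated cells received, at confluency, growth medium of DMEM with 10% FBS to which 0.5 mM IBMX (an inhibitor of phosphodiesterases, the enzymes that break down cAMP), 10 µg/mL insulin, 1 µM dexamethasone (a synthetic glucocorticoid) and 10 µM rosiglitazone (an agonist of PPARG) had been added. After 3 days the cocktail was replaced by growth medium alone, so the MEFD5plu cells were no longer in it when they were taken. The time between the last change of medium and lysis, to which immediate early genes respond, is not given in the sources used here. The labels do not say that replicates came from separate embryos or cultures, so p-values measure the spread between these samples, which may be technical.

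Total counts were between 24030558 and 37281126 per sample. The 9 fibroblast markers summed to between 21140 and 28390 CPM in MEFD3min and to between 8252 and 13910 CPM in the other conditions. CPM is the count of a gene relative to the TMM-scaled total of its library. From MEFD0 to MEFD3min, 6 of the 9 rose and 2 fell in the test named below. Col3a1 went from 215.1 to 8681 CPM and Vim from 6542 to 2814 CPM, so the sum covers genes that moved in both directions. The 7 adipocyte markers summed to between 42.2 and 65.2 CPM in the 3 untreated conditions and between 7441 and 11430 CPM in MEFD3plu and MEFD5plu. Of the markers of other cell types, the 6 of macrophages summed to at most 6.98 CPM with Adgre1 at 0 in every condition, the 4 of endothelium to at most 2.23 CPM, the 4 of epithelium to at most 1.19 CPM, and the 4 of muscle to at most 2.11 CPM with Myod1 and Myf5 at 0 in every condition. In bulk samples, fewer cells of a type and less RNA per cell cannot be told apart, and every level below is a mean over fibroblasts and fat-forming cells together.

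Fos, on chr12:85473890-85477273 (GRCm38), encodes the c-Fos protein, the classical serum-induced member of the family. Stretches of DNA before the start sites of Fos, Atf3, Jdp2 and Jun are printed next because they hold letters that the cAMP-responsive factor CREB and AP-1 itself are known to read, in genes that moved in different directions. Each is the 120 bases before the RefSeq start (GRCm38.p6), written 5′ to 3′ on the strand of the gene. Capitals mark TGACGT (in Atf3 its reverse complement), part of the cAMP response element, or, in Jun, TGACATCA, the variant AP-1 element. The stretches are chr12:85473770-85473889 on the plus strand for Fos, chr1:191183334-191183453 on the minus strand for Atf3, chr12:85599296-85599415 on the plus strand for the second of the Jdp2 starts, and chr4:95052223-95052342 on the minus strand for Jun.
Fos: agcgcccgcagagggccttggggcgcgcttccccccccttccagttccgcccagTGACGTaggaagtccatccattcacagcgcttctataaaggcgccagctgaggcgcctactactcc
Atf3: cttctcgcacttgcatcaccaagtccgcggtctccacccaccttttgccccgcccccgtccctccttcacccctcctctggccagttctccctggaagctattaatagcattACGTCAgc
Jdp2: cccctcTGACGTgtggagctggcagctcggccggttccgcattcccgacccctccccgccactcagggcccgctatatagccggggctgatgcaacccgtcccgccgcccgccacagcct
Jun: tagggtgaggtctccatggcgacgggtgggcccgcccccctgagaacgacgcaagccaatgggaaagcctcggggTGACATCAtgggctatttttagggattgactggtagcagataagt

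The TGACGT of Fos lay from base -66 to base -61 counted from the start, that of Atf3 from -8 to -3 and that of Jdp2 from -114 to -109, and the TGACATCA of Jun lay from -45 to -38. Windows of 250 bases before the start were searched on both strands in the 8 members that had one, which were all but Fosl1 and Egr1. TGACGT stood in 6.47% of the 32841 windows of all genes and TGACATCA in 2.93%. The full element TGACGTCA (1.55% of windows), the common AP-1 element TGANTCA (6.75%) and the CArG box read by serum response factor (1.47%) had no match in any of the 8. Bases further from the start were not searched, so these elements may still lie there. The window of Jund ends at chr8:70697738, before the GENCODE start of the gene at chr8:70698949. The printed stretches of Atf3 and Jdp2 lie within the GENCODE spans of their genes, chr1:191170296-191218039 and chr12:85599027-85639878. Their positions are thus counted from a start inside the gene. The window of Fosl2 ends at chr5:32136471, past the GENCODE start at chr5:32135801. The shorter TGACG, which TGACGT contains, was found in Fosb and Junb as well and in 17.8% of all windows, and the EGR element GCGNGGGCG in Fosb and Fosl2 and in 4.70%. The TATA box letters TATAAA, found in 12.4% of windows, stood in Fos alone, from -33 to -28.

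Fos was a low transcript in these cells. Its levels in replicates 1, 3 and 4 were 0.343, 0.954 and 0.698 CPM in MEFD0, from 10 to 36 counts. At day 3 they were 3.04, 3.45 and 4.10 CPM in MEFD3min and 4.30, 5.20 and 8.35 CPM in MEFD3plu, and at day 5 they were 2.93, 3.12 and 2.46 CPM in MEFD5min and 1.94, 1.61 and 1.99 CPM in MEFD5plu. Every later sample lay above every MEFD0 sample, and treated and untreated samples did not overlap at either day, with the treated samples above at day 3 and below at day 5. In the quasi-likelihood test of edgeR, with p-values adjusted by the method of Benjamini and Hochberg over all tested genes, Fos was 0.76 ± 0.26 higher (log2 fold change ± SE) in MEFD3plu than in MEFD3min (adjusted p = 0.0183). This call was lost without MEFD3plu replicate 4, the highest sample (0.43, edgeR adjusted p = 0.166), and without MEFD3min replicate 1 (0.66, edgeR adjusted p = 0.0711). At day 5 the value of -0.61 ± 0.28 did not pass (edgeR adjusted p = 0.0775). The spread of Fos within conditions, an SD of 0.40 of log2 CPM, was larger than that of 77.8% of tested genes.

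Fosb, on chr7:19302696-19310051, encodes a Fos protein that also exists as the shortened, stable form known as delta FosB. Its level stood at 5.21, 4.24 and 2.65 CPM in MEFD0. It was 6.20, 7.30 and 5.85 CPM in MEFD3min against 2.93, 2.70 and 2.59 CPM in MEFD3plu, and 14.1, 12.5 and 12.2 CPM in MEFD5min against 3.81, 2.90 and 3.50 CPM in MEFD5plu. The treated samples were below the untreated samples at both days, with no overlap, and the 3 MEFD5min samples were the highest of the 15. Fosb fell with treatment by 1.24 on the log2 scale at day 3 (SE 0.20, edgeR adjusted p = 4.17e-05) and by 1.92 at day 5 (SE 0.19, edgeR adjusted p = 3.48e-07).

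Fosl1, on chr19:5447547-5455946, encodes Fra-1, a Fos protein without the strong activation domain of c-Fos that is itself switched on by AP-1. MEFD0 held the highest levels, 118.5, 119.7 and 105.5 CPM. At day 3 they were 17.7, 19.9 and 14.5 CPM in MEFD3min and 30.4, 31.8 and 26.3 CPM in MEFD3plu, and at day 5 they were 60.3, 88.7 and 63.5 CPM in MEFD5min and 34.9, 30.1 and 34.8 CPM in MEFD5plu. The treated samples thus lay above the untreated ones at day 3 and below them at day 5, without overlap at either day, while the untreated cells went down from day 0 to day 3 and part of the way up again by day 5. The treated cells stayed near 30 CPM, and MEFD3plu and MEFD5plu overlapped. Fosl1 rose with treatment at day 3 by 0.76 ± 0.14 (edgeR adjusted p = 0.000203) and fell by 1.09 at day 5 (SE 0.14, edgeR adjusted p = 5.79e-06). A share of 57.2% of the exon bases of Fosl1 lies opposite exons of Ccdc85b. The strand setting of the counting is not given in the sources used here. Reads in the overlap may thus have been left uncounted or may not be told apart, and the level of Fosl1 is uncertain. Ccdc85b itself had means between 32.6 and 42.5 CPM and log2 differences with treatment of 0.07 at day 3 and 0.06 at day 5.

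Fosl2, on chr5:32135801-32157842, encodes Fra-2, the closest relative of Fra-1. It was at 142.9, 136.8 and 119.8 CPM in MEFD0. The day 3 levels were 93.8, 129.1 and 82.0 CPM in MEFD3min and 148.7, 154.3 and 130.0 CPM in MEFD3plu, and the day 5 levels were 128.8, 160.2 and 124.8 CPM in MEFD5min and 87.3, 68.0 and 74.7 CPM in MEFD5plu. At day 3 the highest untreated sample came close to the lowest treated sample without reaching it, and at day 5 the order of treated and untreated was turned over. The rise at day 3 was 0.51 ± 0.15 (edgeR adjusted p = 0.00725) and the fall at day 5 was by 0.85 (SE 0.15, edgeR adjusted p = 0.000148). In both Fosl1 and Fosl2, these calls at day 3 and day 5 held with each sample left out in turn.

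**Figure D1:**
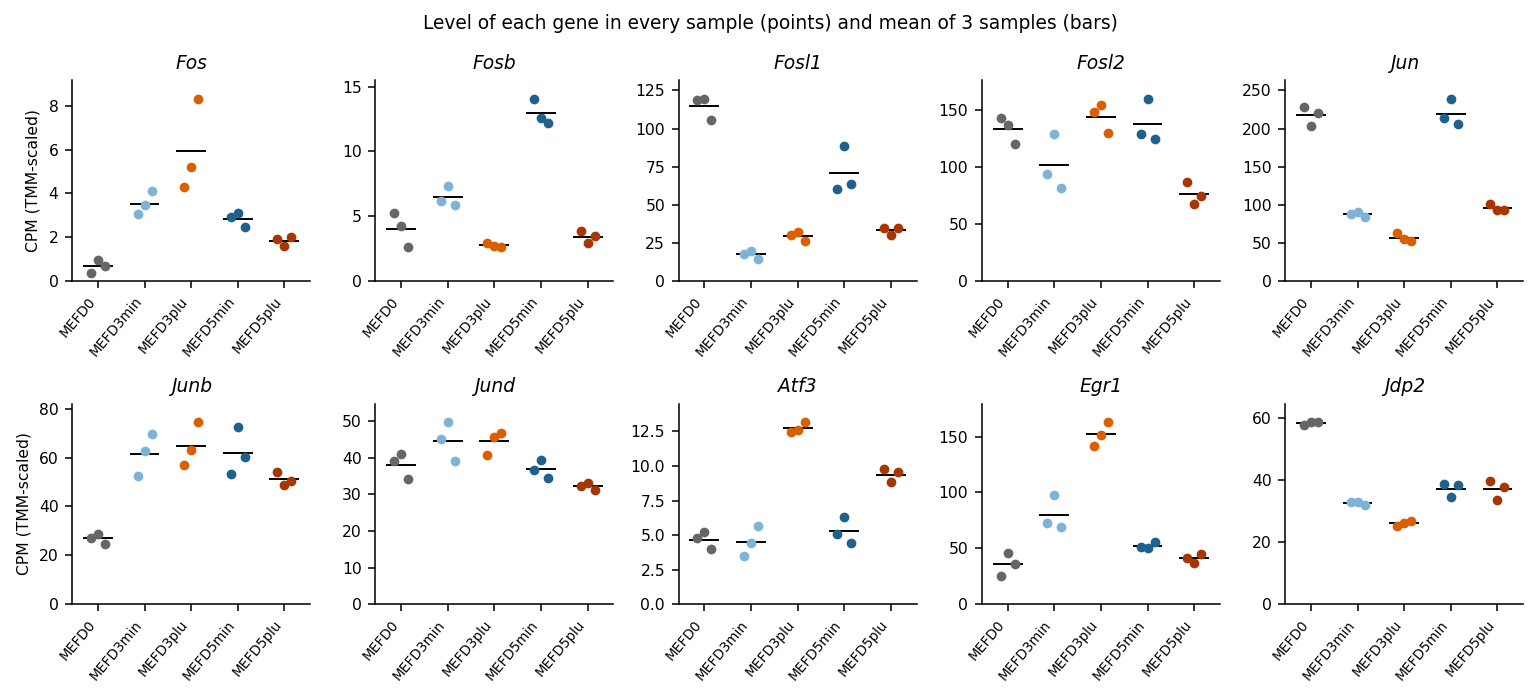
Level of each of the 10 genes in CPM (linear axes that start at 0, 1 panel per gene) for the 5 conditions; points are samples in the order of replicates 1, 3 and 4, and bars are means of 3 samples. Fosl1 and Fosl2 in treated samples lie above untreated samples at day 3 and below them at day 5, Fosb and Jun lie below at both days, and Atf3 lies above at both.

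Jun, on chr4:95049034-95052222, encodes c-Jun, the main partner of the Fos proteins. It stood at 228.4, 202.9 and 220.0 CPM in MEFD0. Its levels were 87.8, 90.7 and 83.8 CPM in MEFD3min and 63.3, 54.6 and 51.8 CPM in MEFD3plu. They were 213.5, 239.4 and 206.2 CPM in MEFD5min and 100.4, 93.7 and 92.9 CPM in MEFD5plu. Untreated cells at day 5 overlapped the cells of day 0, and in treated samples Jun was lower at both days without overlap. Jun fell with treatment by 0.63 on the log2 scale at day 3 (SE 0.09, edgeR adjusted p = 9.50e-06) and by 1.20 at day 5 (SE 0.09, edgeR adjusted p = 8.13e-09). Replicates agreed closely, with a within-condition SD of 0.0998 of log2 CPM, where the median tested gene had 0.188. Of its exon bases, 7.28% lie opposite Junos, whose highest mean was 7.69 CPM.

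Junb, on chr8:84974484-84978718, encodes a Jun protein that activates less strongly than c-Jun and can hold it back. The gene was lowest in MEFD0, at 27.3, 28.8 and 24.8 CPM. Its levels were 52.5, 62.8 and 69.6 CPM in MEFD3min and 57.0, 63.1 and 74.6 CPM in MEFD3plu at day 3. At day 5, MEFD5min had 53.4, 72.5 and 60.3 CPM, and MEFD5plu 54.2, 49.0 and 50.4 CPM. All 12 later samples lay above the MEFD0 samples and the 4 later conditions overlapped in part. With treatment Junb differed by 0.08 at day 3 (95% confidence interval -0.19 to 0.34, edgeR adjusted p = 0.631) and by -0.28 at day 5 (-0.54 to -0.01, edgeR adjusted p = 0.0754). Exons of Prdx2 lie opposite 7.52% of the exon bases of Junb, and Prdx2 differed by -0.52 at day 3 and 0.44 at day 5.

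Jund, on chr8:70698949-70700616, encodes the Jun protein that is usually present in resting cells and responds least to signals. Over all 15 samples it lay between 31.3 CPM, in MEFD5plu, and 49.8 CPM, in MEFD3min, and its condition means spanned 1.38-fold, the narrowest range of the 10 genes. The differences with treatment were -0.01 at day 3 (95% confidence interval -0.21 to 0.20, edgeR adjusted p = 0.968) and -0.19 at day 5 (-0.40 to 0.02, edgeR adjusted p = 0.120). Gm11175, which lies opposite 52.6% of the exon bases of Jund, had 0 counts in every sample; since the strand setting is not given in the sources used here, reads in the overlap may have been left uncounted, and the level and family share of Jund are uncertain.

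Atf3, on chr1:191170296-191218039, encodes a stress-induced factor that pairs with Jun proteins and often represses. It was at 4.80, 5.22 and 3.99 CPM in MEFD0. The other untreated cells held similar levels, 3.48, 4.41 and 5.68 CPM in MEFD3min and 5.08, 6.31 and 4.41 CPM in MEFD5min. In treated cells it was 12.5, 12.6 and 13.2 CPM in MEFD3plu and 9.77, 8.83 and 9.56 CPM in MEFD5plu. Every treated sample was above every untreated sample, and the 3 untreated conditions overlapped. Atf3 rose by 1.50 ± 0.17 at day 3 (edgeR adjusted p = 6.73e-07) and by 0.84 ± 0.17 at day 5 (edgeR adjusted p = 0.000436), the largest rise of the 10 genes at day 3 and the only call in that direction at day 5.

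Egr1, on chr18:34859823-34864984, encodes a zinc finger factor outside the AP-1 family that is induced beside Fos by serum and growth factors. Its levels were 25.6, 46.2 and 36.2 CPM in MEFD0. They were 72.6, 98.0 and 68.9 CPM in MEFD3min and 141.9, 151.1 and 163.1 CPM in MEFD3plu, and 51.6, 50.4 and 55.3 CPM in MEFD5min and 41.4, 37.4 and 44.8 CPM in MEFD5plu. The MEFD3plu samples were the highest of all, and the MEFD5plu samples lay within the range of MEFD0. Egr1 rose with treatment at day 3 by 0.93 ± 0.16 (edgeR adjusted p = 0.000103), and the day 5 value of -0.35 ± 0.16 did not pass (edgeR adjusted p = 0.0870), although treated and untreated samples of that day did not overlap. Over the 15 samples log2 CPM of Fos and Egr1 had a Pearson r of 0.863. After removal of the condition means r was 0.689. Other pairs of the genes described here were stronger, so this link was not special to Fos and Egr1. Over the samples these were Fos and Jdp2 (-0.914), Fos and Junb (0.911) and Junb and Jdp2 (-0.878). After removal of the condition means they were Fosl1 and Fosl2 (0.874) and Junb and Atf3 (0.777). All remaining pairs were weaker than Fos and Egr1 on each measure. The points share libraries and the 5 conditions, so these values are a description.

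Jdp2, on chr12:85599027-85639878, encodes a Jun dimerisation protein that represses AP-1 sites. It was at 58.0, 58.9 and 58.9 CPM in MEFD0. The levels were 32.9, 32.9 and 32.2 CPM in MEFD3min and 25.3, 26.2 and 27.0 CPM in MEFD3plu. At day 5, MEFD5min had 38.9, 34.6 and 38.5 CPM, and MEFD5plu 40.0, 33.8 and 37.7 CPM. MEFD0 was above all later samples and MEFD3plu below all others, while both day 5 conditions overlapped. Replicates were close, since only 6.53% of tested genes had a smaller within-condition SD, and the small fall with treatment at day 3, by 0.32 (SE 0.08), passed the test (edgeR adjusted p = 0.00228). At day 5 the difference was -0.01 (95% confidence interval -0.17 to 0.16, edgeR adjusted p = 0.951). Of the exon bases of Jdp2, 7.68% lie opposite Gm47863.

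The comparison of MEFD3plu with MEFD3min asks what the cocktail did while it was on the cells. At day 3, 5 of the 10 genes rose (Fos, Fosl1, Fosl2, Atf3 and Egr1), 3 fell (Fosb, Jun and Jdp2) and Junb and Jund did not pass. Among all tested genes 56.1% passed in this comparison, 28.0% higher and 28.0% lower, and the median log2 fold change was 0.29 over the 10 genes and -0.001 over all tested genes.

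At day 5, after the return to growth medium, Atf3 rose, Fosb, Fosl1, Fosl2 and Jun fell, and the other 5 did not pass. Over all tested genes 50.5% passed, 26.3% higher and 24.2% lower, with a median of 0.01, and the median of the 10 genes was -0.48. Fos, Junb and Egr1 have 95% confidence intervals below 0 at day 5, and the count of calls depended on the fit: it was 5 in the fit reported here, 6 in DESeq2, 8 with no filter or with only the 6 day 5 samples and 9 with scaling to total counts, and each added call was of a lower value.

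**Figure D2:**
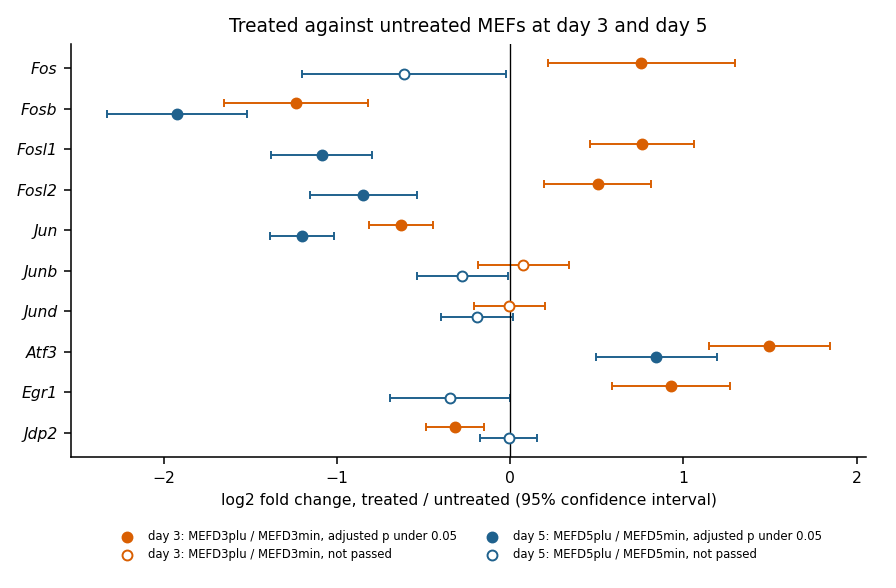
Log2 fold change of treated over untreated MEFs for the 10 genes at day 3 and day 5; points are estimates of edgeR's quasi-likelihood fit, bars are 95% confidence intervals, and open points did not reach an adjusted p under 0.05. Day 3 and day 5 estimates of Fosl1 lie at 0.76 and -1.09, and those of Fosl2 at 0.51 and -0.85.

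The treatment difference itself was then compared between the days by an interaction term, day 3 minus day 5. It was positive and passed in 7 genes, at 1.85 ± 0.20 in Fosl1 (edgeR adjusted p = 1.03e-06), 1.37 ± 0.38 in Fos, 1.35 ± 0.21 in Fosl2, 1.28 ± 0.23 in Egr1, 0.69 ± 0.27 in Fosb, 0.65 ± 0.23 in Atf3 and 0.57 ± 0.12 in Jun. Jdp2 passed in the other direction, at -0.31 ± 0.11, and Junb and Jund did not pass, at 0.35 (95% confidence interval -0.02 to 0.72) and 0.18 (-0.11 to 0.48). Among all tested genes 48.5% passed, 22.6% positive and 25.8% negative. In the 4 Fos genes the cocktail samples stood higher relative to their controls at day 3 than at day 5, which in Fosb means a smaller fall. The 8 calls became 5 without MEFD3min replicate 1 or without MEFD5min replicate 3. Those of Fosb, Jdp2 and Atf3 were the ones that depended on single samples, being lost in 9, 7 and 4 of the 12 fits that left out a sample of day 3 or day 5.

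Time in culture without the cocktail moved the genes as well. From MEFD0 to MEFD3min, Fos (2.37 ± 0.31), Junb (1.19 ± 0.13), Egr1 (1.15 ± 0.16) and Fosb (0.69 ± 0.19) rose on the log2 scale, and Fosl1 fell by 2.72 (SE 0.15), Jun by 1.31, Jdp2 by 0.84 and Fosl2 by 0.39. The call of Fosl2 was lost without MEFD0 replicate 1 or 3 or MEFD3min replicate 1 or 4. Atf3 and Jund did not pass (edgeR adjusted p = 0.823 and 0.0508). Background was high here too, with 60.0% of tested genes called, 31.4% higher and 28.6% lower.

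From MEFD0 to MEFD5min, Fos (2.05 ± 0.31), Fosb (1.69 ± 0.19), Junb (1.20 ± 0.13) and Egr1 (0.54 ± 0.16) were higher, and Fosl1 fell by 0.70 and Jdp2 by 0.65. Of all tested genes 46.4% were called, 24.5% higher and 21.9% lower. Without MEFD0 replicate 1 or MEFD5min replicate 4 the call of Egr1 was lost. For Jun the difference was 0.02 with a 95% confidence interval of -0.16 to 0.20, and for Fosl2 it was 0.05 (-0.26 to 0.36).

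Between the untreated days, MEFD5min was above MEFD3min in Fosl1 (2.02 ± 0.14), Jun (1.33 ± 0.09), Fosb (1.00 ± 0.18) and Fosl2 (0.44 ± 0.15), and Egr1 fell by 0.61 and Jund by 0.28. All tested genes gave 42.8% called, 21.3% higher and 21.5% lower. The calls of Fosl2 (MEFD3min replicate 1 or 4, MEFD5min replicate 3) and Jund (MEFD3min replicate 1 or 3, MEFD5min replicate 1 or 4) were lost when the named samples were left out.

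Between the treated days, after withdrawal of the cocktail, 6 of the 10 genes fell and 2 rose. Egr1 fell by 1.88 (SE 0.17, edgeR adjusted p = 5.18e-08), Fos by 1.69 (SE 0.27), Fosl2 by 0.91, Jund by 0.46, Atf3 by 0.44 and Junb by 0.34. Jun (0.76 ± 0.09) and Jdp2 (0.50 ± 0.08) rose, and Fosb and Fosl1 did not pass (edgeR adjusted p = 0.190 and 0.294). Of all tested genes 63.0% were called, 33.8% higher and 29.2% lower. Junb was not called without MEFD3plu replicate 4 or MEFD5plu replicate 3 or 4, nor Atf3 without MEFD3plu replicate 4 or MEFD5plu replicate 3.

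Because all members of a family compete for the same partners, their make-up was also described as shares of the family's CPM per kilobase of exon, a scale on which genes of different length can be set side by side. Fosl1 made up 79.4% ± 0.57 (SD, n = 3) of the Fos family in MEFD0 and Fosl2 19.4% ± 0.51. In MEFD3min Fosl1 was at 39.7% ± 2.1 and Fosl2 at 48.3% ± 3.0, and in MEFD3plu they were at 44.7% ± 1.8 and 46.0% ± 1.5. In MEFD5min and MEFD5plu Fosl1 held 66.3% ± 2.4 and 63.9% ± 1.6. The genes for Fra-1 and Fra-2 thus gave most of the family's transcripts in every condition. The share of Fosl1 is uncertain, because 57.2% of its exon bases lie opposite exons of Ccdc85b. Reads in this overlap may have been left uncounted or may not be told apart. Fos was at 0.40% ± 0.18 in MEFD0, 7.16% ± 2.1 in MEFD3min and 7.92% ± 3.3 in MEFD3plu. Its samples ran from 5.7% to 9.5% in MEFD3min and from 5.61% to 11.7% in MEFD3plu, so these conditions overlapped. Fosb was between 0.90% and 4.82%.

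In the Jun family, Jun made up 66.3% ± 2.9 in MEFD0 and 58.5% ± 1.1 in MEFD5min. It was at 33.9% ± 1.5 in MEFD3min, where Junb (33.1% ± 4.3) and Jund (33.0% ± 3.2) held like shares. In treated cells the share of Jun was 24.6% ± 3.8 in MEFD3plu, with 38.7% ± 3.2 for Junb and 36.7% ± 1.3 for Jund, and 41.9% ± 0.32 in MEFD5plu. At each day the 3 treated samples had a lower share of Jun than the 3 untreated samples, with no overlap. The sum of the Fos family was 71.0 ± 5.3 CPM per kilobase in MEFD0, 21.6 ± 3.8 and 32.4 ± 2.0 in untreated and treated cells of day 3, and 52.4 ± 9.7 and 25.6 ± 2.4 in those of day 5. The sum of the Jun family was 102.6 ± 3.7, 81.0 ± 4.2, 72.6 ± 3.9, 117.9 ± 10.55 and 71.6 ± 2.5 CPM per kilobase in the same order, so that the Fos sum was 0.692 ± 0.044 of the Jun sum in MEFD0 and 0.266 ± 0.036 of it in MEFD3min. These shares rest on exon length. With the longest transcript as the length, Fosl2 was further above Fosl1 in MEFD3plu, at 53.2% against 38.1%, where exon length gave 46.0% against 44.7%. Junb then held 38.6% of the Jun family in MEFD3min against 31.1% for Jun and 30.3% for Jund.

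**Figure D3:**
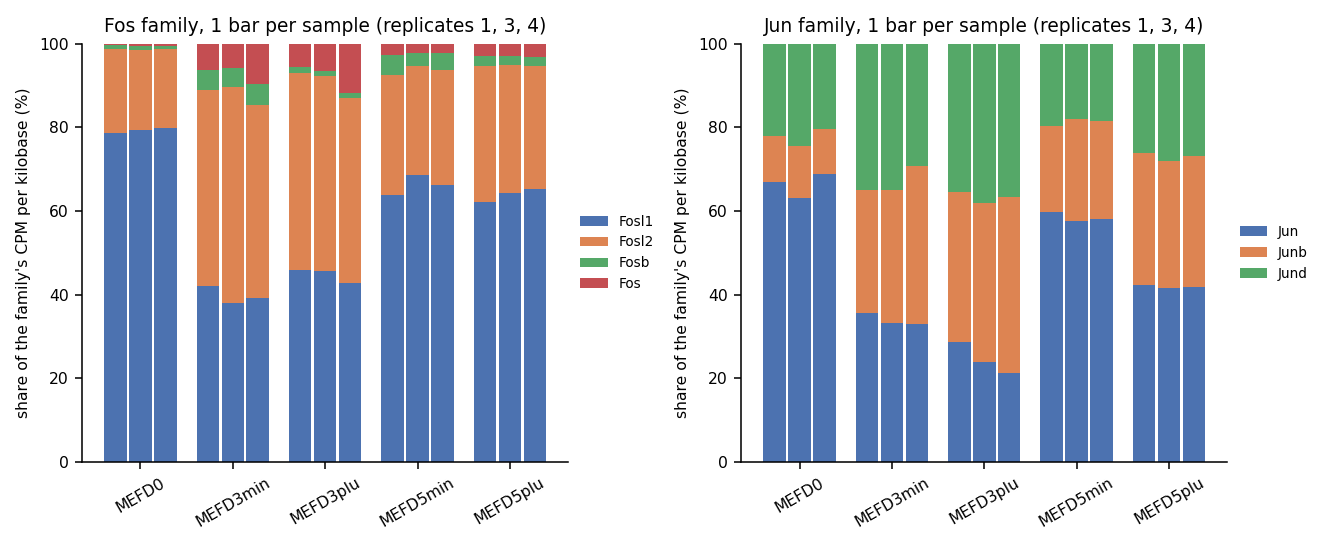
Share of each gene in the summed CPM per kilobase of the Fos family (left) and the Jun family (right), in percent from 0 to 100; each bar is 1 sample, with replicates 1, 3 and 4 side by side in each condition. Fosl1 fills 79.4% of the Fos family in MEFD0 and 39.7% in MEFD3min, and Jun fills 66.3% of the Jun family in MEFD0 and 24.6% in MEFD3plu.

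The order of the 5 conditions differed from gene to gene. Fos rose from MEFD0 over MEFD5plu, MEFD5min and MEFD3min to MEFD3plu, an 8.94-fold span of means in which MEFD5min and MEFD3min overlapped. Fosl1 spanned 6.60-fold from MEFD3min to MEFD0, and its neighbours MEFD3plu and MEFD5plu overlapped. Fosb spanned 4.72-fold from MEFD3plu to MEFD5min, Egr1 4.22-fold from MEFD0 to MEFD3plu and Jun 3.88-fold from MEFD3plu to MEFD5min. The lower 3 conditions of Fosb overlapped each with the next, as did the lower pair of Egr1 and the upper pair of Jun. The remaining spans were 2.82-fold in Atf3, 2.41-fold in Junb, 2.24-fold in Jdp2 and 1.88-fold in Fosl2, in which every condition overlapped the next in the order.

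Genes with the most similar pattern were taken by Pearson r of log2 CPM over the 15 samples, among tested genes whose log2 CPM averaged 3 or more. Jun was most like Msn (r = 0.992), which encodes the actin linker moesin, Actb (0.991), which encodes beta actin, and Suv39h1 (0.985), a histone methyltransferase. Fosl1 was most like Brca2 (0.991), a DNA repair gene, Srsf2 (0.990), a splicing factor, and Nde1 (0.989), a gene of the dividing cell. Actb had means of 2228 CPM in MEFD0, 1075 and 812.7 in untreated and treated cells of day 3, and 2147 and 1142 in those of day 5, and Brca2 41.1, 9.45, 13.4, 26.2 and 14.8 CPM in the same order.

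For Fosb these genes were Itgb3 (r = 0.964), which encodes the integrin beta 3 chain, Pmepa1 (0.954) and Tspan7 (0.949), and for Fosl2 they were Srrm1 (0.975), Tmem201 (0.974) and Brpf1 (0.973). For Atf3 they were Pcdh9 (0.973), Mum1l1 (0.969) and Deptor (0.965), an inhibitor of mTOR, and for Egr1 Lman2l (0.963), Fndc3b (0.955) and the laminin gene Lamb1 (0.955). For Jdp2 they were Acsl5 (0.971), Usp12 (0.969) and Mcrs1 (0.966), and for Jund Zfp318 (0.959), Pik3r4 (0.947) and Cxxc5 (0.944). Fos was most like Rxrb (0.955), Mogs (0.935) and Slc2a8 (0.933), and Junb like Tmed4 (0.950), Hist1h1c (0.950) and Klhl22 (0.948). The points share 5 conditions and were the best of 9585 or 9586 genes searched, and the 3 names changed in most members when Spearman's rho was used.

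The other genes of the pathway were followed as lists. Among the other immediate early genes, 28 of 29 were tested, of which 12 rose and 9 fell at day 3 and 1 rose and 19 fell at day 5, with medians of 0.15 and -0.64 on the log2 scale. Over all tested genes 28.0% rose and 28.0% fell at day 3, and 26.3% rose and 24.2% fell at day 5. The interaction of treatment and day passed in 16 positive and 1 negative, against 22.6% and 25.8% of all tested genes. The leading changes were falls. Ccn2 (CTGF), a matricellular protein gene, fell at both days, from 25.3 ± 6.5 to 4.82 ± 2.0 CPM at day 3, where it fell by 2.38 on the log2 scale, and from 211.1 ± 18.3 to 41.4 ± 5.4 CPM at day 5, where it fell by 2.35 (mean ± SD, n = 3). Ier3, a survival gene, fell by 2.33 at day 3 and 2.03 at day 5. Dusp2, a MAP kinase phosphatase, fell by 2.92 and 1.87 at the same days, and Hbegf, an EGF receptor ligand, by 1.91 and 2.25. A share of 23.2% of the exon bases of Ccn2 lies opposite Gm15270.

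In several of the list the treatment difference had the signs of that of Fosl1, positive at day 3 and negative at day 5. Myc, a growth regulator, was 1.56 higher at day 3 and fell by 0.83 at day 5, Ccn1 (CYR61) was 1.38 higher and fell by 0.75, and Trib1 was 1.28 higher and fell by 1.26, each past the test. They were named after their values were seen. Zfp36 (1.33), Dusp1 (1.07), Btg2 (1.01) and Ppp1r15a (0.99) rose at day 3 and did not pass at day 5; they too were chosen after their values were seen.

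The list of AP-1 target genes, made up mostly of matrix proteases and their regulators, had 11 tested genes that are reported here. Of these, 8 fell at day 3 and the other 3 did not pass, with a median of -1.97, and at day 5, 8 fell and 1 rose (Spp1), with a median of -0.92, where 28.0% and 24.2% of all tested genes fell. The 9 fibroblast markers moved in the same comparison at day 3, where 7 fell and 1 rose with a median of -1.60, Lum by the most (-4.11), while at day 5 2 fell and 2 rose with a median of -0.17; their part in these values was not tested. The matrix metalloproteinase genes moved most. Mmp3, stromelysin 1, went from 762.9 ± 139.3 to 12.6 ± 2.4 CPM at day 3, where it fell by 5.92, and from 1323 ± 163.5 to 441.4 ± 32.6 CPM at day 5, where it fell by 1.58. Mmp13, collagenase 3, fell by 6.91 and 1.99. Mmp10, stromelysin 2, was at or under the floor of 3 counts in every MEFD3plu sample and so at least 25.4-fold lower there than in MEFD3min, and at day 5 it fell by 3.28. With Mmp10 at that bound the day 3 median remained -1.97, and Mmp3 and Mmp10 share 8.39% and 8.37% of their 50-base stretches, nearly all with each other.

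Between the treated days all 11 of these AP-1 target genes rose, with a median of 2.23, where 33.8% of tested genes did so and while Fos, Fosl2, Junb, Jund, Atf3 and Egr1 fell and Jun and Jdp2 rose. In untreated cells 9 of the 11 were higher in MEFD5min than in MEFD0 and 1 was lower, against 24.5% and 21.9% of all tested genes. Of the higher ones, Mmp9 and Il6 were at or under the floor of 3 counts in every MEFD0 sample. Dexamethasone, a glucocorticoid, was in the medium of MEFD3plu and not in that of MEFD5plu; it came and went with the other 3 agents, and its part cannot be told apart from theirs.

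**Figure D4:**
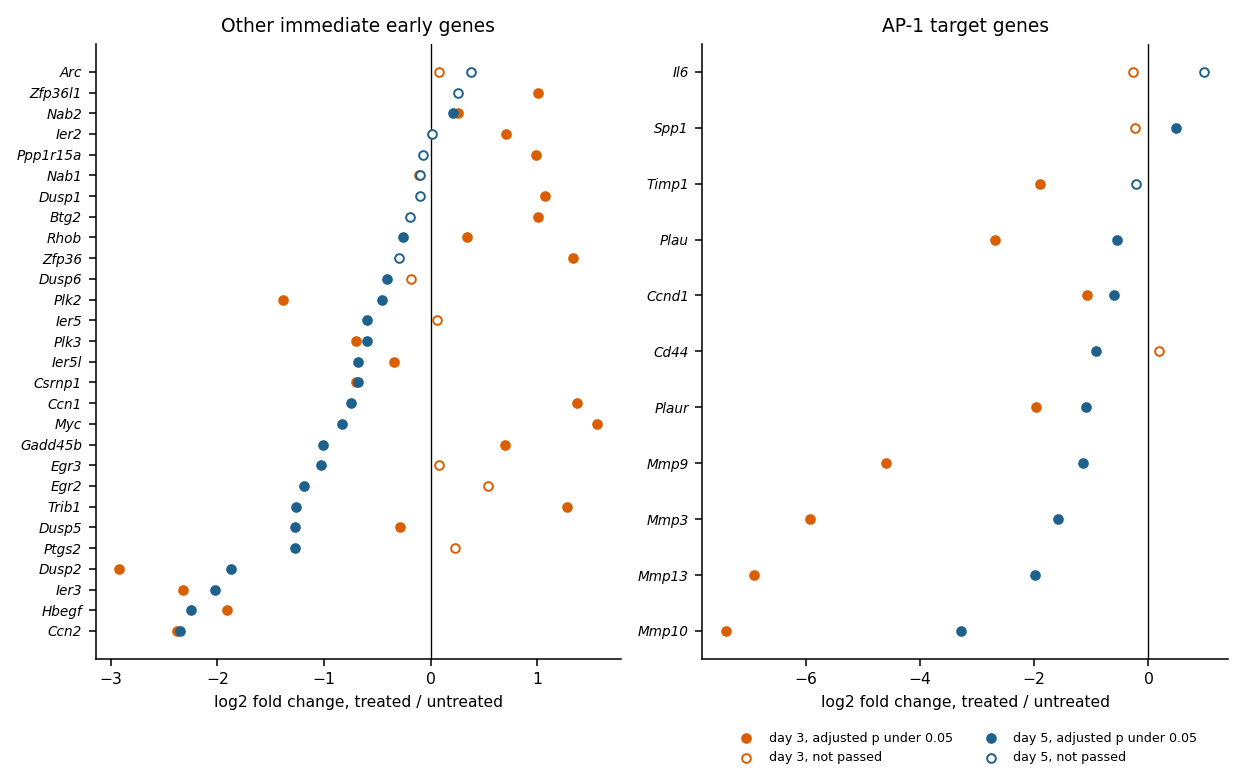
Log2 fold change of treated over untreated MEFs at day 3 and day 5 for the 28 tested other immediate early genes (left) and 11 AP-1 target genes (right), each panel ordered by the day 5 value; filled points passed an adjusted p under 0.05. The fitted value of Mmp10 at day 3 is drawn although MEFD3plu was at the floor, and the immediate early genes split into 12 higher and 9 lower at day 3 and 1 higher and 19 lower at day 5.

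Of the other leucine zipper partners, 6 of 10 were tested, of which 3 rose and 1 fell at day 3 and 2 rose and 3 fell at day 5, with medians of 0.23 and -0.45, where 56.1% and 50.5% of all tested genes were called. Maf, which encodes c-Maf, had the largest change, from 5.04 ± 1.3 to 37.1 ± 2.0 CPM at day 3 (2.87 ± 0.15) and from 0.96 ± 0.13 to 12.1 ± 0.025 CPM at day 5 (3.65 ± 0.18). Atf2 fell by 0.47 at day 3 and rose by 0.21 at day 5, and Atf7 rose by 0.38 at day 3 and did not pass at day 5. At day 5 the small Maf genes Maff and Mafk fell by 0.93 and 0.61. At day 3 Maff rose by 0.27 and Mafk did not pass. Other genes, mainly Gm28047, hold 11.2% of the 50-base stretches of Atf7.

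Among the 16 kinases and serum response or cAMP-responsive factors upstream, 7 rose and 4 fell at day 3 and 2 rose and 7 fell at day 5, with medians of 0.14 and -0.17. All tested genes gave 56.1% called at day 3, 28.0% higher and 28.0% lower. At day 5 they gave 50.5%, 26.3% higher and 24.2% lower. Taken in both directions together the calls of the list were near this background, and their split by direction was not tested. Elk3, a ternary complex factor that can repress Fos, fell by 1.89 at day 3 from 170.3 ± 23.8 to 46.0 ± 2.3 CPM and by 1.04 at day 5. Mapk14, the p38 kinase, rose by 0.92 and Mapk3, the ERK1 kinase, fell by 0.81 at day 3. Srf, serum response factor, and its coactivator gene Mrtfa fell at day 5, by 0.65 and 1.37.

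The 7 heat shock genes, included as a list of stress-induced genes, gave 1 higher and 2 lower at day 3 and 2 lower at day 5, where the other 5 did not pass, with medians of -0.24 and -0.06, where 56.1% and 50.5% of all tested genes were called. Hsph1 fell by 0.73 at day 3 and 1.16 at day 5, Dnajb1 by 0.41 at day 5 and Hspa1b by 0.69 at day 3, and Hspb1 rose by 1.32 at day 3, from 0.44 ± 0.057 to 1.11 ± 0.23 CPM. Other genes, mainly Hspa1a, hold 62.3% of the 50-base stretches of Hspa1b and, mainly Hsp25-ps1, 50.1% of those of Hspb1, so their counts are uncertain.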

How the data were processed

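RNA of 15 MEF samples was sequenced as 100 bp paired-end reads. The authors deposited raw counts of reads per Ensembl gene, 1 file per sample; the submitters' processing notes name TopHat2 2.1.0, HTSeq, DESeq2 and the genome build GRCm38 (mm10), and the strand setting of the counting is not given in the sources used here. The labels name a kit that does not keep strand and the paper one that does. Of 46603 identifiers, 46005 were named in GENCODE M21, which also gave coordinates; promoter windows came from RefSeq (GRCm38.p6).

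Counts were fitted over all 15 samples and 5 conditions with edgeR 4.0.16 in R 4.3.3 (filterByExpr, TMM scaling, quasi-likelihood test, Benjamini-Hochberg adjustment over 15997 genes, threshold 0.05). CPM are TMM-scaled; log2 CPM for likeness and spread used a prior count of 2. Scripts were tested on simulated data. Depth was 24030558 to 37281126 counts per sample; intervals and the floor of 3 counts cover sampling and replicate error of these libraries only. Alternatives were DESeq2 1.42.0, its size factors, total-count scaling, no filter, at least 10 counts in every sample, only the conditions compared, the replicate number as a block, each sample left out, and a threshold of 0.01. Same-numbered samples deviated together in MEFD3plu and MEFD3min (r of 0.143, 0.228 and 0.36 over genes for replicates 1, 3 and 4), which pairs them by that measure and not by a label, and the block changed no call of the 10 genes there.

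The 10 genes and the lists were chosen with earlier results of these data known, and 1 gene of the AP-1 target list is not reported here and was left out of its counts and medians after its values were known. Named from each list of pathway genes are the 3 called genes with the largest fold change at day 3 and at day 5 (fewer where fewer were called), and for each of the 10 genes the 3 with the highest r. Overlaps and shared 50-base stretches were counted in GENCODE M21.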

Additional observations from a re-analysis of the deposited data

Results flagged for a closer look

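The treatment difference was not the same at both days, by the interaction term of edgeR's quasi-likelihood fit, in 8 of the 10 genes. Among all tested genes 48.5% passed this term, and the calls of Fosb, Jdp2 and Atf3 depended on single samples. On the log2 scale, day 3 minus day 5, the term was 1.37 in Fos, 0.69 in Fosb, 1.85 in Fosl1, 1.35 in Fosl2, 0.57 in Jun, 0.65 in Atf3, 1.28 in Egr1 and -0.31 in Jdp2. In Fosl1 and Fosl2 each day passed the test by itself and in opposite directions. In Fos and Egr1 the day 3 rise passed and the day 5 value, negative in both, did not, whereas Fosb and Jun fell at both days and Atf3 rose at both. Samples of day 3 and day 5 also differ in time in culture and in time since the medium was changed, which is not given in the sources used here, and the part of either was not tested.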

How the results depend on the processing

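Over 490 alternative values of the 70 member comparisons, 457 kept direction and side of the threshold, 8 lost the call, 19 gained it and 6 changed sign; with single samples left out the counts were 417, 40, 7 and 16 of 480. At day 5 the members called were 5, against 9 with total-count scaling, 8 with no filter and 8 with only the day 5 samples. The interaction gave 8 members, 5 at an adjusted p under 0.01 and 5 to 8 with a sample left out. Signs turned only in values that had not passed: Jun in MEFD5min against MEFD0 (-0.0002 in DESeq2, -0.0027 with total counts, -0.0102 with no filter), Jund at day 3 (0.0099 with total counts, 0.0013 with the replicate block) and Junb in MEFD5min against MEFD3min (-0.0334 with no filter); the cause was not tested. With a sample left out the ranges that crossed 0 were -0.24 to 0.11 for Atf3 in MEFD3min against MEFD0; -0.0695 to 0.10 for Fosl2, -0.0484 to 0.0535 for Jun and -0.12 to 0.0059 for Jund in MEFD5min against MEFD0; -0.0355 to 0.17 for Junb and -0.0911 to 0.0801 for Jund at day 3; -0.063 to 0.058 for Jdp2 at day 5; and -0.11 to 0.11 for Junb in MEFD5min against MEFD3min.

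The interaction of Jdp2 also lost its call with DESeq2 size factors, total counts, no filter and only the conditions compared. The median over all tested genes shifted under total-count scaling by -0.162 at day 5, 0.182 in the interaction and -0.117 in MEFD3min against MEFD0, and the share of higher calls at day 5 from 52.1% to 37.0%, from 46.7% to 59.5% in the interaction and from 49.7% to 62.7% in MEFD5min against MEFD3min. The replicate block gave 9452 genes called at day 3 and 8607 at day 5, against 8967 and 8080 without it; it added Egr1 at day 5 (-0.35, adjusted p = 0.0476) and Jund in MEFD3min against MEFD0 (0.23, adjusted p = 0.0249) and changed no other member's call, and only at day 3 did every same-numbered pair of treated and untreated samples correlate above 0.1. With 3 samples a condition and Fos at 10 counts in its lowest sample, depth limits Fos most.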
